A study of Homo sapiens with 9 samples.

Results

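The axon guidance ligands and receptors examined here are the ephrins and their Eph receptors, the class 3 to 7 semaphorins and the plexins, the SLIT ligands and ROBO receptors, and the netrins with the receptors NEO1, UNC5A and UNC5B. The rule took every Eph, ephrin, semaphorin, plexin, SLIT, ROBO, UNC5, netrin and netrin-G symbol together with DCC and NEO1. The count table held 61 such genes among 21003 genes and 1111 repeat subfamilies. They were 35 ligands and 26 receptors, and 59 passed the filter on low counts. EPHA8, with a total of 60 counts over all libraries, and NTN5, with 43, did not pass, and family members outside these 61, such as EPHA5, PLXNA4 and DCC, were not analysed here.

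These molecules steer growing axons and migrating cells by pulling on the actin cytoskeleton. Ephrins sit on the membrane of one cell and bind Eph receptor tyrosine kinases on its neighbour, so contact is needed for signalling. Semaphorins act through plexins, which switch off small GTPases; most secreted class 3 semaphorins also need a neuropilin as the binding partner. SLIT proteins repel through ROBO receptors, and netrins attract or repel according to whether DCC, NEO1 or an UNC5 receptor is present. All of them are also used outside the nervous system, in blood vessels, epithelia and blood-forming tissue.

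The cells were HAP1, an adherent near-haploid human line that derives from the chronic myeloid leukaemia line KBM-7, and the study asked how loss of MATR3 changes gene expression. MATR3 encodes matrin 3, a nuclear RNA- and DNA-binding protein. The 4 knockout (KO) libraries came from purchased MATR3 knockout clones 1 and 5, 2 libraries each, and the 5 wild-type (WT) libraries from supplier control batches called clone 1 (3 libraries) and clone 7 (2 libraries). No agent was added, and a shared clone number does not tie a KO clone to a WT clone.

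Total counts per library ranged from 16103754 to 34407309, and the 61 genes took 0.152 to 0.175% of them. The labels do not say whether replicates of a clone were grown separately, and p-values therefore reflect variation among libraries that may be technical. Each genotype had only 2 clones, and the test between genotypes took every library as a separate unit. Where n is given it counts libraries, not clones. MATR3 RNA itself fell from 219 ± 5.83 CPM (counts per 1e6, mean ± SD, n = 5) in the wild type to 44.4 ± 3.58 CPM (n = 4) in the knockout, a log2 difference of -2.30. A second MATR3 entry, ENSG00000280987, fell from 234 ± 9.81 to 53 ± 2.75 CPM, a log2 difference of -2.14. WT clone 1 replicate 1 stood apart, with 14.03% of its counts in repeats against 7.9 to 10.48% in the other WT libraries. Of 18 markers of blood cells, 8 were in the table, led by GATA2 at 50.6 CPM and TAL1 at 38.6 CPM in WT, while the pan-leukocyte gene PTPRC was not among those 8. Of the 6 tested none was higher and 2 were lower in KO, KIT from 8.48 to 1.15 CPM (log2 -2.92) and RUNX1 from 16.4 to 9.84 CPM (log2 -0.73). Of 10 epithelial markers tested 5 were higher and none lower in KO. Their list summed to 67.3 to 90.7 CPM across WT libraries and 141 to 159 CPM across KO libraries. Most of this was KRT8, at means of 11.2 and 64.8 CPM, and KRT18, at 43 and 59.1 CPM. CDH1, TJP3 and PRSS8, also higher, reached KO means of 1.24, 4.07 and 0.637 CPM. Of those not called, OCLN (log2 -0.42), ESRP1 (-0.29) and ESRP2 (-0.13) lay below 0 and CLDN3 (0.57) and CLDN7 (0.06) above. Among those not tested, mean EPCAM was lower in KO (0.567 to 0.117 CPM) and mean CLDN4 higher (0.147 to 0.401 CPM). Among 12 mesenchymal markers 2 were higher and 4 lower. The higher ones were COL1A1 (log2 0.88) and TWIST2 (2.16), and the lower ones VIM, CDH2 (-0.99), ZEB1 (-0.55) and ZEB2 (-0.26). The sum of that list spanned 616 to 895 CPM over the WT libraries and 429 to 617 CPM over the KO libraries. Most of it was VIM, at means of 508 and 329 CPM (log2 -0.62). Of 11 neuronal markers tested 4 were higher and 2 lower, among them NEFL, which went from 0.769 to 29.6 CPM (log2 5.24), and GAP43 (log2 -4.68), with a sum of 107 to 132 CPM in WT and 113 to 149 CPM in KO. Over all features tested 10.8% were higher and 11.3% lower, and each of these lists is short. The part of any of these lists in the results below was not tested. In bulk RNA fewer cells of a type and less RNA per cell cannot be told apart.

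Of the 59 genes tested, 20 were called between KO and WT at an adjusted p below 0.05 (33.9%), where 22.1% of all 18829 genes and repeats tested were called. Calls came from edgeR's quasi-likelihood test with Benjamini-Hochberg adjustment over all of them. In KO libraries 12 genes were lower (20.3%, against 11.3% of all features) and 8 higher (13.6%, against 10.8%). Higher calls numbered 5 when a single library was left out, if it was either one of KO clone 1, the second of KO clone 5 or the first of WT clone 7. Without WT clone 1 replicate 1 there were 21 calls, 15 lower and 6 higher. A called difference of at least 2-fold was found for 12 of the 59 (20.3%), compared with 5.83% of all features. The median log2 difference was -0.03 for these genes and -0.01 for all features, while the median absolute log2 difference was 0.32 against 0.17. Thus the typical guidance gene differed more than the typical feature, with a median near 0. Between clones of 1 genotype the median absolute difference was 0.24 against 0.12 for KO clone 5 over KO clone 1. For WT clone 7 over WT clone 1 it was 0.13 against 0.15. The called genes lower by at least 2-fold were EPHA3, EPHA6, EPHA7, EPHB1, SEMA3A, SEMA3D, SEMA6D, EFNB2 and NTN1. Those higher by at least 2-fold were EPHB6, EPHA10 and NTN4. KO and WT libraries did not overlap for 18 genes (30.5%), where the share over all features was 22.2%.

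**Figure D1:**
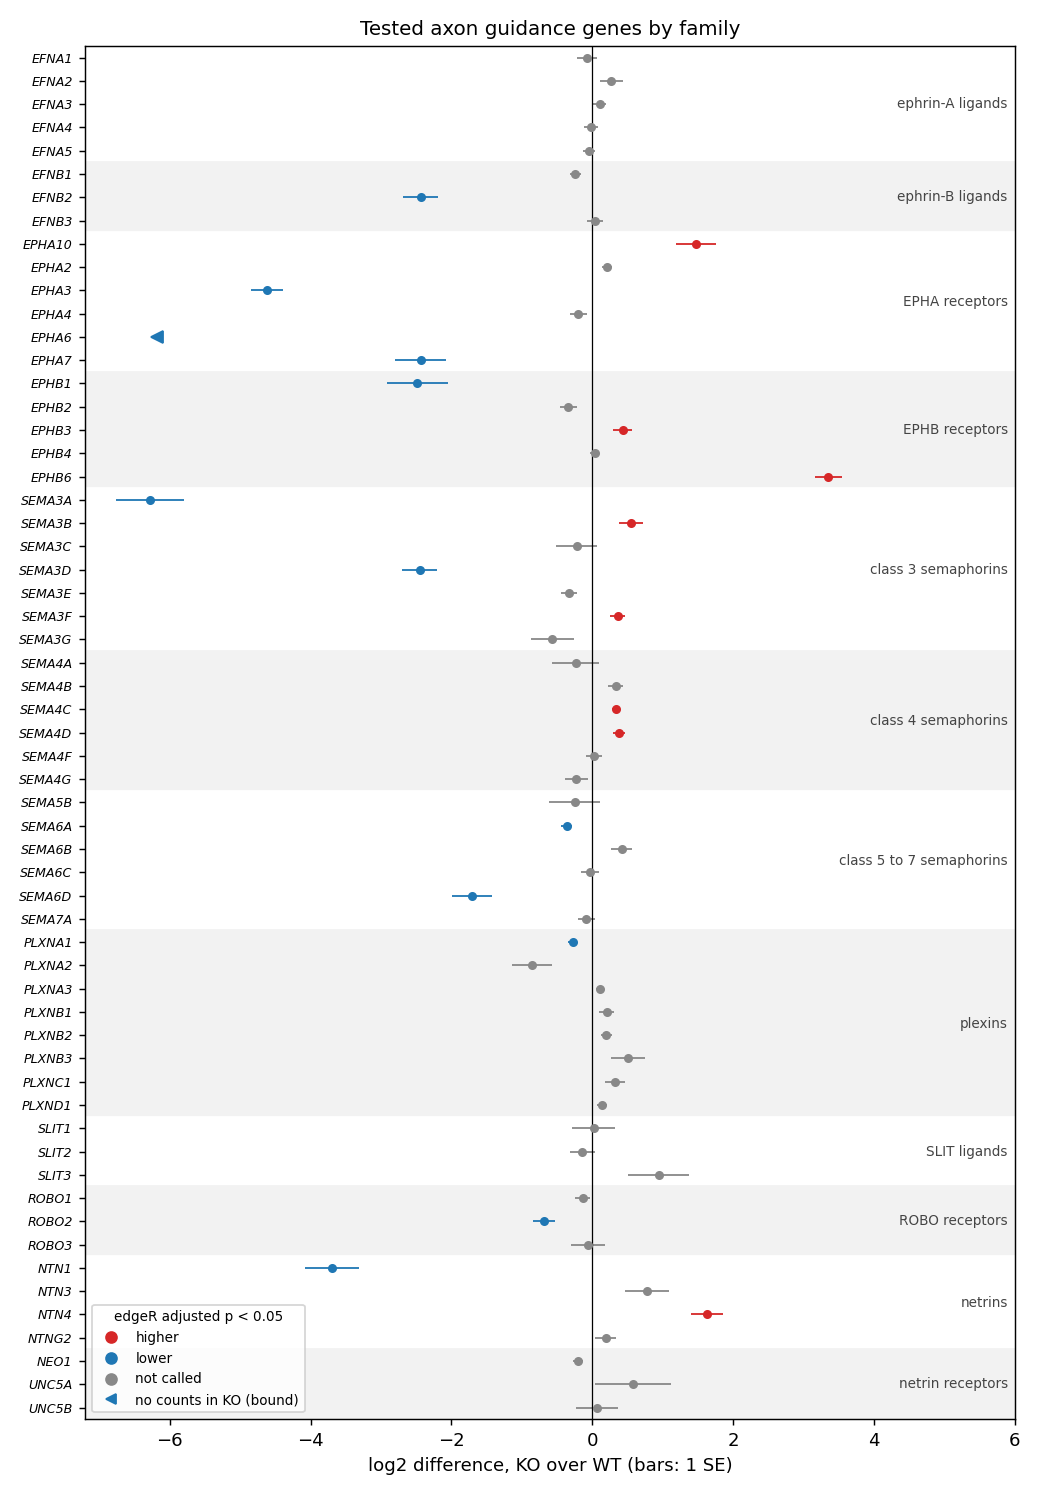
Log2 difference (KO over WT, x axis) of each of the tested axon guidance genes, grouped by family, with bars of 1 SE. EPHA3, EPHA6, SEMA3A and NTN1 lie farthest to the left and EPHB6 farthest to the right, while the ephrin-A ligands sit close to 0. EPHA6 has no counts in KO libraries and is drawn as an arrowhead at its bound of at least 72.6-fold lower.

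As examples of what lies upstream of called genes, the 250 bases before the start site are given for 3 genes that were lower, EPHA3, SEMA3D and EFNB2, and 1 that was higher, NTN4. They were chosen after their values were seen and are not a ranking by change, although EPHA3 was among the genes with the largest decreases. Sequences are from RefSeq on GRCh38.p14, read 5′ to 3′ on the strand of the gene, and capitals mark CG dinucleotides.
EPHA3 chr3:89107371-89107620 (plus strand): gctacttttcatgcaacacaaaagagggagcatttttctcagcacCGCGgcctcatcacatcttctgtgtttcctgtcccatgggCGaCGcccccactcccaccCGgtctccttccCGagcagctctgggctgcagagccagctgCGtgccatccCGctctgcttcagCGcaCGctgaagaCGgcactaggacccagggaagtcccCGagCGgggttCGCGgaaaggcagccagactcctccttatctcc
SEMA3D chr7:85187057-85187306 (minus strand): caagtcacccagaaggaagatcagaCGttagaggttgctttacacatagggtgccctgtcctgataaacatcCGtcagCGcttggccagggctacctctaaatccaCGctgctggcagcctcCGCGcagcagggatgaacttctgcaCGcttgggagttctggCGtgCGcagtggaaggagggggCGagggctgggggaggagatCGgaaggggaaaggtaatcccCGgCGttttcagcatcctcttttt
EFNB2 chr13:106535663-106535912 (minus strand): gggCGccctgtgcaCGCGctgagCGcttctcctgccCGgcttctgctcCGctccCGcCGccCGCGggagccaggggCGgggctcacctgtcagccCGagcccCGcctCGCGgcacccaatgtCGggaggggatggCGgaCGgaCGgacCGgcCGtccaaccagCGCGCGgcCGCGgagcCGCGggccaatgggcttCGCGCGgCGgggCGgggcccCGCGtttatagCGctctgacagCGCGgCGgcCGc
NTN4 chr12:95791156-95791405 (minus strand): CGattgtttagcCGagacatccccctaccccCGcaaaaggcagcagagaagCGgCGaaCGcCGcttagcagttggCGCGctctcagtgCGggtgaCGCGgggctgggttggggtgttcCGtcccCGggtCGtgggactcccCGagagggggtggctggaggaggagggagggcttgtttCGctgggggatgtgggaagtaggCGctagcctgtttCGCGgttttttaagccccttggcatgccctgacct
EFNB2 held 40 CG dinucleotides in this window, NTN4 20, EPHA3 15 and SEMA3D 13. Searched on both strands for the letters of a TATA box (TATAAA), the EFNB2 window held them and the other windows shown did not. In EFNB2 they lay on the strand opposite to the gene, printed above as tttata. The letters of a CCAAT box and of an Sp1-type GC box were likewise present in EFNB2 and not in the other windows shown. An entry was found for 52 of the 61 genes, and for 46 it lay within 1000 bases of the GENCODE 44 start. These 46 windows were 1 per gene, chosen near its start, whereas all 35114 windows entered without such a choice. Of those 46, 73.9% had a CG content at least 0.6 of that expected from their C and G. Of all 35114 windows 47.5% did. The share was 87.5% of the 8 lower genes and 80% of the 5 higher genes with a window, and 71% of the 31 not called. Their median ratios of CG content to that expected were 0.662, 0.789 and 0.728, so the lower genes had the lowest median. The GC box (GGGCGG) was present in 78.3% of the 46 and 42.6% of all windows. The CCAAT letters were present in 39.1% and 32.0%. The TATA box was present in 2.17% and 10.7%. SEMA3A, NTN1, SEMA6A and EPHA10 had no entry.

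Eph receptors differed in both directions and held the largest increase of the 59 genes. Among the EPHA receptors tested 3 of 6 were lower and 1 higher, and among the EPHB receptors 1 of 5 was lower and 2 higher. EPHA3, a receptor of ephrin-A ligands, was close to lost. In WT clone 1 it stood at 22.5, 26.2 and 30.1 CPM and in WT clone 7 at 33.4 and 31.4 CPM, and in KO clone 1 it was at 1.86 and 1.3 CPM and in KO clone 5 at 0.569 and 0.982 CPM. All KO libraries were far below all WT libraries, with means of 28.7 ± 4.36 and 1.18 ± 0.544 CPM, a 24.4-fold decrease (log2 -4.61, SE 0.23, edgeR adjusted p = 8.0e-08). Without KO clone 1 the log2 difference was -5.23, the farthest of the alternatives from the value above. EPHA3 spans chr3:89107621-89482134 on hg38 and lies 7.33 Mb from EPHA6.

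EPHA6, another EPHA receptor, gave 4.32, 2.44 and 1.65 CPM in WT clone 1 and 2.08 and 1.43 CPM in WT clone 7. No read was counted in any of the 4 KO libraries. Against a floor of 3 counts over the 4 KO libraries it was at least 72.6-fold lower (edgeR adjusted p = 8.8e-05), or at least 57.9-fold lower without WT clone 1 replicate 1. EPHA7, known for a part in cortical and retinal mapping, was at 6.54, 11.8 and 12.3 CPM in WT clone 1 and at 15.1 and 12.3 CPM in WT clone 7. It was at 3.25 and 3.23 CPM in KO clone 1 and at 0.948 and 0.982 CPM in KO clone 5. The groups did not overlap, and the decrease was 5.52-fold (log2 -2.44, SE 0.36, edgeR adjusted p = 0.00045).

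EPHB1 binds ephrin-B ligands. Its level was 8.27, 3.78 and 3.63 CPM in WT clone 1, 1.82 and 2.36 CPM in WT clone 7, 0.639 and 0.519 CPM in KO clone 1 and 0.854 and 0.818 CPM in KO clone 5. WT clone 1 replicate 1 was the highest library by a wide margin, and every KO library was below every WT library. The log2 difference of -2.49 (SE 0.44, edgeR adjusted p = 0.0015) became -1.57 with all of WT clone 1 left out.

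EPHB6, EPHA10 and EPHB3 were the Eph receptors called higher. EPHB6, whose kinase domain lacks catalytic activity, was at 2.84, 1.39 and 1.62 CPM in WT clone 1, 1.32 and 1.74 CPM in WT clone 7, 17 and 14.1 CPM in KO clone 1 and 19.7 and 20.4 CPM in KO clone 5. Every KO library exceeded every WT library, and the increase was 9.99-fold (log2 3.35, SE 0.20, edgeR adjusted p = 3.1e-07). EPHA10, also without kinase activity, rose from 0.792 ± 0.218 CPM (n = 5) to 2.23 ± 0.818 CPM (n = 4), with a log2 difference of 1.47 (SE 0.28, edgeR adjusted p = 0.0027). Its WT libraries ran from 0.529 to 1.00 CPM and its KO libraries from 1.59 to 3.37 CPM, without overlap. In KO clone 1 against WT clone 1 it was not called (log2 0.86, edgeR adjusted p = 0.068), and with the libraries of each clone summed its adjusted p was 0.053. EPHB3 was higher by 0.43 on the log2 scale (SE 0.14, edgeR adjusted p = 0.040), from 13.5 ± 2.83 to 18.3 ± 1.26 CPM, with KO clone 5 replicate 1 at 17.3 CPM below WT clone 1 replicate 3 at 17.4 CPM. That call was lost in 11 of 22 alternatives.

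The more abundant Eph receptors did not pass the test. Per kilobase of exon in WT libraries, EPHB4 was at 13.1, EPHA2 at 10.3 and EPHA4 at 8.48 CPM per kb, against 4.37 for EPHA3 and 0.13 for EPHA6. EPHB4 differed by 0.03 on the log2 scale (95% interval -0.09 to 0.15) and was not called. EPHA2 stood between 37.4 and 46.7 CPM across WT and between 47.2 and 53.1 CPM across KO libraries, so the groups did not overlap, yet its edgeR adjusted p of 0.053 missed the threshold. EPHB2 (log2 -0.34) and EPHA4 (log2 -0.20) were not called either.

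Among the ephrins, the ligands of these receptors, 1 of 8 was called. None of the 5 ephrin-A ligands was called by edgeR, by DESeq2 or in any other alternative, and 0 had an unadjusted p below 0.05. Their log2 differences ran from -0.07 for EFNA1 to 0.27 for EFNA2. Summed, they reached 81.5 ± 6.76 CPM (n = 5) without and 82.1 ± 1.76 CPM (n = 4) with the knockout, and EFNA5 was the most abundant of them per length at 9.34 CPM per kb in WT libraries. EFNA3 and EFNA4 overlap a readthrough transcript on the same strand, so reads could have been split between them and it. EFNB1, the most abundant of all 61 genes per length at 44.6 CPM per kb in WT and 37.8 in KO libraries, was not called (log2 -0.24, edgeR adjusted p = 0.053). EFNB1 passed in 7 of 22 alternatives, DESeq2 among them, and in KO clone 5 against WT clone 7 (log2 -0.42, SE 0.10, edgeR adjusted p = 0.016), and its adjusted p in the authors' deposited table was 0.0348. EFNB3 was not called (log2 0.04). EFNB2 was lower. This ligand of EphB receptors and EPHA4, needed for artery formation, was at 10.4, 13.2 and 12.6 CPM in WT clone 1, 14.9 and 14.8 CPM in WT clone 7, 3.6 and 3.14 CPM in KO clone 1 and 1.38 and 1.53 CPM in KO clone 5. KO libraries were all lower than WT libraries, by 5.46-fold on the means (log2 -2.43, SE 0.25, edgeR adjusted p = 2.4e-05).

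**Figure D2:**
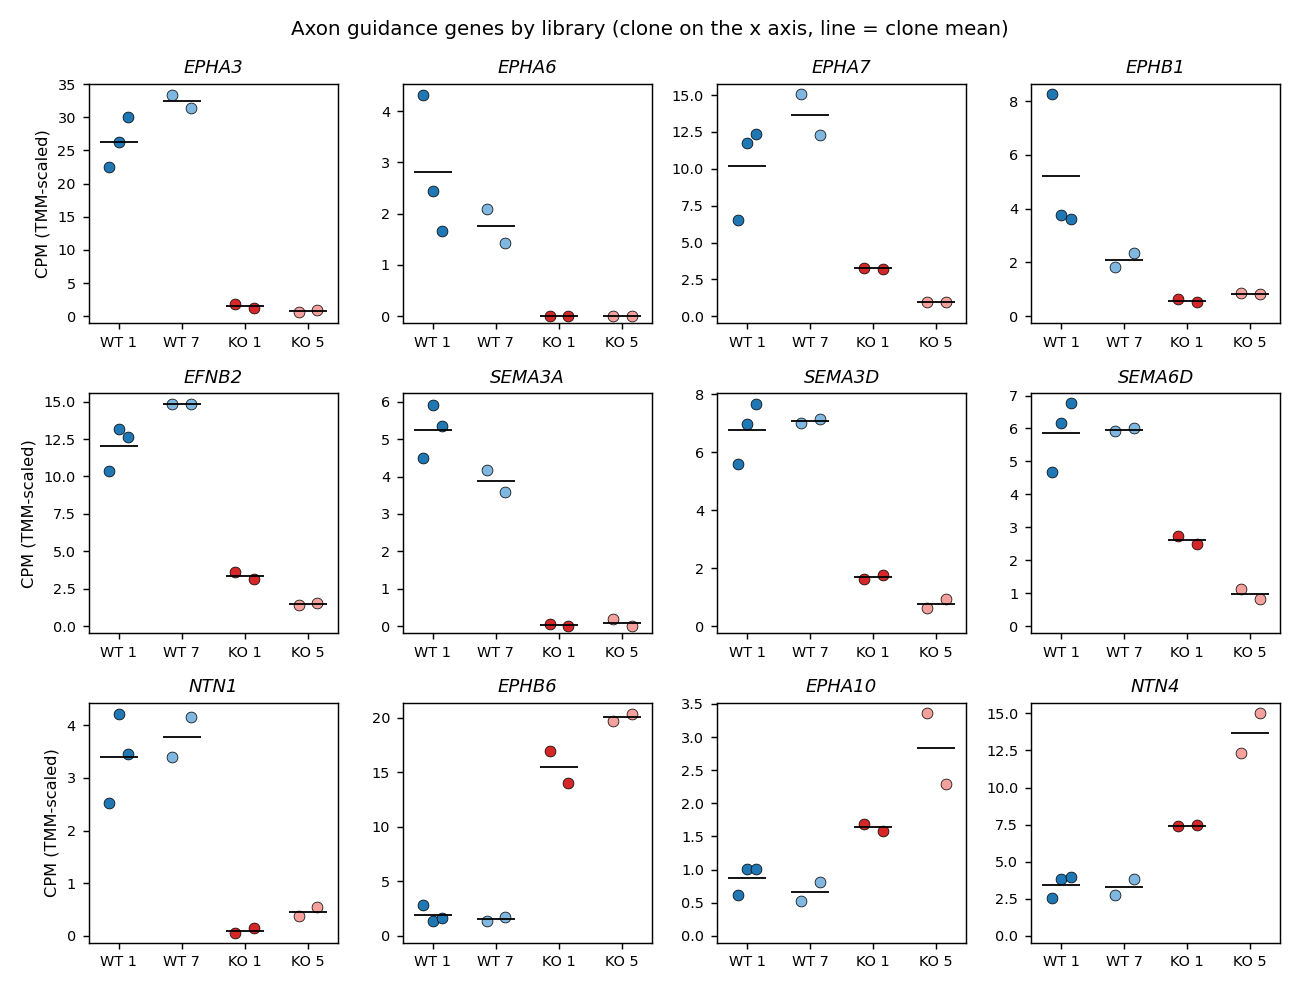
CPM (y axis, linear, its own range for each gene) in each of the 9 libraries for 12 axon guidance genes, with the clones on the x axis and a line at each clone's mean. EPHA3, SEMA3A and EFNB2 are lower in all 4 KO libraries than in any WT library, and EPHB6 is higher in all 4, at 14.1 to 20.4 CPM.

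Among the semaphorins, 2 of 7 class 3 members were lower and 2 higher, 2 of 6 class 4 members were higher, and 2 of 6 class 5 to 7 members were lower. SEMA3A, the secreted semaphorin that collapses growth cones through neuropilin 1 and A-type plexins, was at 4.5, 5.93 and 5.35 CPM in WT clone 1 and 4.16 and 3.6 CPM in WT clone 7. In KO clone 1 it was at 0.0581 CPM and 0, and in KO clone 5 at 0.19 CPM and 0. The KO libraries were all near 0, and the log2 difference was -6.28 (SE 0.48, edgeR adjusted p = 2.3e-06), a value that ran from -7.91 to -5.48 over the alternatives. The KO libraries above 0 held 1 and 4 counts. SEMA3D, which guides neural crest and cardiac cells, was at 5.61, 6.98 and 7.68 CPM in WT clone 1, 7.01 and 7.14 CPM in WT clone 7, 1.63 and 1.76 CPM in KO clone 1 and 0.616 and 0.927 CPM in KO clone 5. This was a 5.59-fold decrease without overlap (log2 -2.45, SE 0.25, edgeR adjusted p = 2.1e-05).

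SEMA3A and SEMA3D are neighbours on hg38 chromosome 7, at chr7:83955777-84492724 and chr7:84995553-85187056, 0.503 Mb apart. SEMA3E, 0.307 Mb on the other side of SEMA3A, had a mean of 16.1 CPM (WT) and 12.8 CPM (KO) and was not called (log2 -0.33, edgeR adjusted p = 0.055). SEMA3C, 2.44 Mb beyond it, was not called (log2 -0.22), nor was SEMA3G (log2 -0.56) on chromosome 3. A second pair of class 3 genes, SEMA3F and SEMA3B on chromosome 3, 0.0785 Mb apart, was higher. SEMA3F went from 8.11 ± 1.12 to 10.5 ± 0.751 CPM (log2 0.36, SE 0.11, edgeR adjusted p = 0.038) with overlapping groups, and SEMA3B from 1.73 ± 0.296 to 2.57 ± 0.378 CPM (log2 0.55, SE 0.18, edgeR adjusted p = 0.042) without overlap. The call of SEMA3F was lost in 11 and that of SEMA3B in 14 of 22 alternatives.

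Class 4 semaphorins are membrane-bound ligands, and the called pair includes SEMA4D, which binds PLXNB1. SEMA4D ranged from 21.1 to 27.4 CPM across WT libraries and from 29.3 to 34 CPM across KO libraries (log2 0.38, SE 0.08, edgeR adjusted p = 0.0050). SEMA4C ranged from 33.4 to 37.6 CPM and from 43.2 to 46.5 CPM (log2 0.33, SE 0.05, edgeR adjusted p = 0.00094). Neither overlapped between genotypes. SEMA4B (log2 0.33), SEMA6B (log2 0.42) and PLXNB2 (log2 0.20) were not called, but each passed with the replicate number as a block. SEMA4B passed in 7 of 22 alternatives, SEMA6B in 4 and PLXNB2 in that 1. SEMA4A and SEMA4F were not called, nor was SEMA4G, which overlaps MRPL43 on the opposite strand.

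SEMA6A, a transmembrane semaphorin that binds PLXNA2 and PLXNA4, was the most abundant semaphorin per length, at 16.1 CPM per kb in WT libraries. Its WT libraries read 187, 178, 175, 164 and 173 CPM, and its KO libraries 141 and 154 CPM in clone 1 and 126 and 123 CPM in clone 5. The decrease was without overlap but small (log2 -0.36, SE 0.07, edgeR adjusted p = 0.0037), and the gene overlaps its antisense RNA SEMA6A-AS1. SEMA6D fell further, from 4.69, 6.17 and 6.77 CPM in WT clone 1 and 5.92 and 6.02 CPM in WT clone 7 to 2.73 and 2.48 CPM in KO clone 1 and 1.14 and 0.818 CPM in KO clone 5 (log2 -1.70, SE 0.29, edgeR adjusted p = 0.0011). Both KO clones were below all WT libraries. SEMA5B, SEMA6C and SEMA7A were not called.

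Of the plexins, receptors of the semaphorins, 1 of 8 was called. PLXNA1 read 141 to 159 CPM across WT and 113 to 129 CPM across KO libraries (log2 -0.28, SE 0.06, edgeR adjusted p = 0.0059). Summed over the family the level was 509 ± 40.0 CPM (WT, n = 5) and 528 ± 20.2 CPM (KO, n = 4). Per length PLXNB2 was highest among them at 14.6 CPM per kb in WT libraries, followed by PLXNA1 at 13.1, and PLXNA2 was lowest at 0.0736 CPM per kb. PLXNA2 itself, with means of 1.02 and 0.562 CPM, missed the threshold (log2 -0.85, edgeR adjusted p = 0.052). PLXNB1, PLXNB3 and PLXND1 were not called. PLXNC1 overlaps CEP83 and PLXNA3 overlaps LAGE3, each on the opposite strand.

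**Figure D3:**
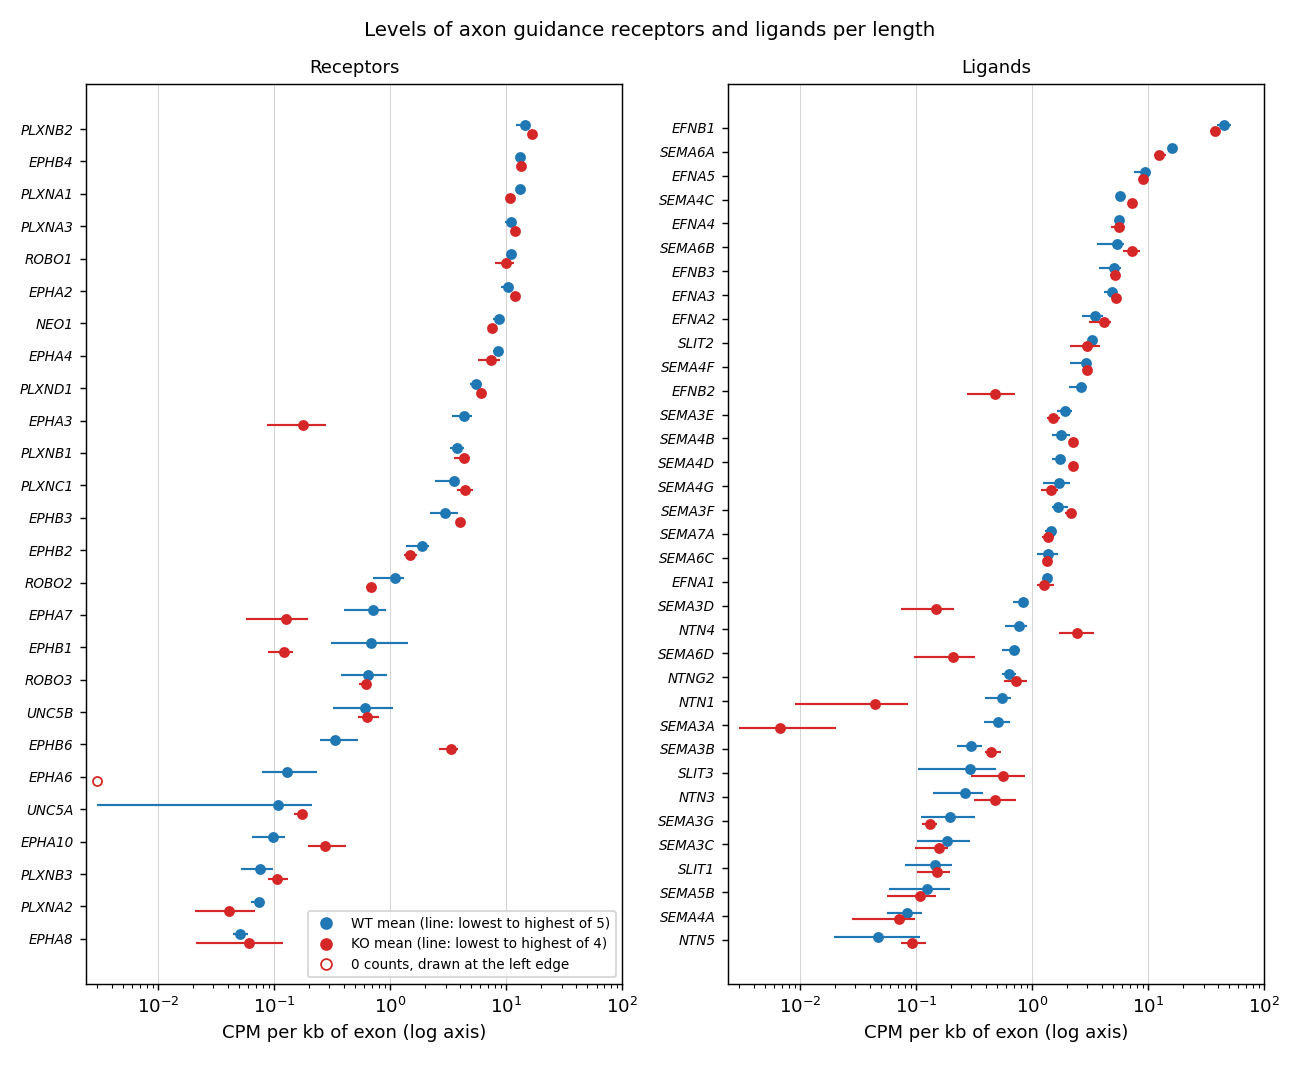
Mean CPM per kilobase of exon (x axis, log scale) of each axon guidance gene in WT and KO libraries, with lines from the lowest to the highest library. EFNB1, at 44.6 CPM per kb in WT, SEMA6A and PLXNB2 lead, while EPHA6, SEMA3A and NTN1 stand below 1 CPM per kb and EPHA3 at 4.37 CPM per kb in WT. EPHA6 in KO libraries, with 0 counts, is an open circle at the left edge, and a line that reaches this edge includes a library with 0 counts, as for UNC5A in WT and SEMA3A in KO libraries.

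Neuropilin 2, the coreceptor of class 3 semaphorins with SEMA3F among its ligands, fell from 6.71 ± 1.85 CPM (n = 5) to 1.07 ± 0.292 CPM (n = 4) (log2 -2.66, SE 0.25, edgeR adjusted p = 1.0e-05). Neuropilin 1, the coreceptor of SEMA3A, was level at means of 51.2 and 51.9 CPM and was not called.

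Netrins changed in opposite directions, while their receptors did not pass the test. NTN1, the founding secreted attractant, was at 2.53, 4.21 and 3.46 CPM in WT clone 1, 3.4 and 4.16 CPM in WT clone 7, 0.0581 and 0.144 CPM in KO clone 1 and 0.379 and 0.545 CPM in KO clone 5. All KO libraries lay well below all WT libraries (12.6-fold, log2 -3.70, SE 0.38, edgeR adjusted p = 2.3e-05). NTN4, a netrin of basement membranes that binds laminins, was at 2.53, 3.83 and 3.96 CPM in WT clone 1, 2.74 and 3.85 CPM in WT clone 7, 7.37 and 7.47 CPM in KO clone 1 and 12.3 and 15.1 CPM in KO clone 5. It was higher in all 4 KO libraries (3.12-fold, log2 1.63, SE 0.23, edgeR adjusted p = 0.00032). NTN3 and NTNG2 were not called. The receptor NEO1 ranged from 62.9 to 75 CPM over WT libraries and from 56.5 to 67.9 CPM over KO libraries (log2 -0.20, edgeR adjusted p = 0.061, unadjusted p = 0.015, called by DESeq2), and UNC5A (log2 0.58) and UNC5B (log2 0.07) were not called. With all of WT clone 1 left out both passed, at log2 1.49 (edgeR adjusted p = 0.022) and 0.89 (edgeR adjusted p = 0.019). UNC5B was below 0 on the log2 scale in 5 of 22 alternatives, without passing in any of those.

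In the SLIT and ROBO families only ROBO2 passed the test between genotypes, out of 3 ligands and 3 receptors. It was at 11.9, 21.7 and 22.1 CPM in WT clone 1, 17.3 and 18.1 CPM in WT clone 7, 10.4 and 12 CPM in KO clone 1 and 12.5 and 10.7 CPM in KO clone 5. WT clone 1 replicate 1 lay among the KO libraries, and the log2 difference was -0.68 (SE 0.16, edgeR adjusted p = 0.0083). ROBO1, 0.947 Mb away and more abundant per length at 10.9 against 1.09 CPM per kb in WT libraries, was not called (log2 -0.13), nor was ROBO3 (log2 -0.07). None of the SLIT genes was called between genotypes, with an unadjusted p of 0.049 for SLIT3, nor by DESeq2, but levels varied by clone. With 4 clone groups in the fit SLIT2 (log2 -0.19, edgeR adjusted p = 0.026) and SLIT3 (log2 1.12, edgeR adjusted p = 0.00054) passed. Without KO clone 5 the log2 difference of SLIT2 was -0.61 (edgeR adjusted p = 0.00076), and without WT clone 1 that of SLIT3 was 2.05 (edgeR adjusted p = 0.018). SLIT1 shares exons with the readthrough ARHGAP19-SLIT1 and was not called (log2 0.02).

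Comparing each KO clone with a different WT clone gives a pair of comparisons whose means share no library. Both came from the same fit of all libraries, with shared scaling and dispersion, so the tests are not independent. Without WT clone 1 replicate 1, KO clone 5 against WT clone 7 called 30 genes. KO clone 1 against WT clone 1 called 22 of the 59 genes (37.3%, against 19.9% of all features), 17 lower (28.8%, against 11.4%) and 5 higher (8.47%, against 8.55%). KO clone 5 against WT clone 7 called 20 (33.9%, against 17.1%), 12 lower (20.3%, against 8.44%) and 8 higher (13.6%, against 8.65%). Without KO clone 1 replicate 1 the first count was 13, and without its replicate 2 it was 14. In both, 12 genes were called in the same direction, as were 9.16% of all features. EFNB2, EPHA3, EPHA6, EPHA7, NTN1, SEMA3A, SEMA3D, SEMA6A and SEMA6D were lower and EPHB6, NTN4 and SEMA4C higher in both. Some genes not called between genotypes were called in one of them. In KO clone 1 against WT clone 1 these were ROBO1, SLIT2, SEMA3E, NEO1 and PLXNA2, which were lower, and EPHA2 and PLXNC1, which were higher. In KO clone 5 against WT clone 7, EPHA4, SEMA3G and EFNB1 were lower and SLIT2, SLIT3 and NTN3 higher. The 9 genes lower in both include all the ligands and receptors with a decrease of more than 3-fold except EPHB1, for which KO clone 5 against WT clone 7 gave a log2 difference of -1.29 (SE 0.46, edgeR adjusted p = 0.084).

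**Figure D4:**
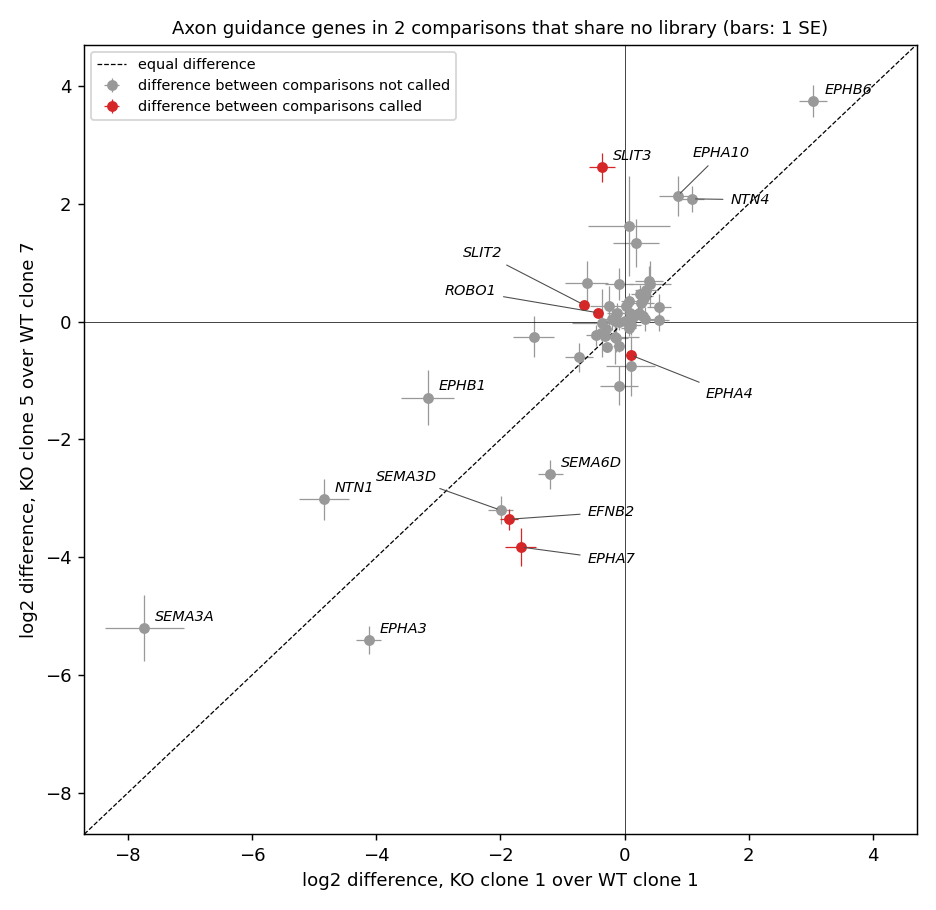
Log2 difference of KO clone 1 over WT clone 1 (x axis) against that of KO clone 5 over WT clone 7 (y axis) for the axon guidance genes, with bars of 1 SE and the line of equal difference. Red marks the 6 genes whose difference was itself called as unequal, with SLIT3 far above the line at -0.37 and 2.62. EPHA6, without counts in KO libraries, is left out.

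The difference between these comparisons was itself called for 6 genes (10.2%, against 2.24% of all features), which were SLIT2, SLIT3, ROBO1, EPHA4, EPHA7 and EFNB2. SLIT2, the main repellent of the family, was the gene that was called in opposite directions. It read 35.1, 37.1 and 38.7 CPM in WT clone 1, 35.3 and 33.7 CPM in WT clone 7, 23.7 and 23.3 CPM in KO clone 1 and 41.5 and 42.7 CPM in KO clone 5. Thus KO clone 1 was below and KO clone 5 above every WT library, with log2 differences of -0.66 (SE 0.07, edgeR adjusted p = 0.00015) and 0.29 (SE 0.08, edgeR adjusted p = 0.031). SLIT3 was at 6.91, 4.88 and 5.11 CPM in WT clone 1, 1.49 and 2.48 CPM in WT clone 7, 4.41 and 4.24 CPM in KO clone 1 and 10.9 and 12.5 CPM in KO clone 5. Only KO clone 5 exceeded all WT libraries, and the WT clones differed from each other too.

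ROBO1, a receptor of both SLITs, followed KO clone as SLIT2 did, at 88.2 and 96.8 CPM in KO clone 1, 127 and 129 CPM in KO clone 5 and 113 to 127 CPM in the WT libraries. It was lower in KO clone 1 than in WT clone 1 (log2 -0.42, SE 0.07, edgeR adjusted p = 0.0019) and not called in KO clone 5 against WT clone 7. EPHA4, a receptor with broad ephrin binding, had the reverse pattern. Its KO clone 5 libraries were at 50.2 and 42.8 CPM, its KO clone 1 libraries at 66.1 and 64.4 CPM and its WT libraries at 57.7 to 69.1 CPM. EPHA7 and EFNB2 were lower in both KO clones, and further in KO clone 5, at log2 differences of -3.83 and -3.35 against -1.67 and -1.86 in KO clone 1.

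Fewer of these genes were called between clones of the same genotype than between genotypes, but between the KO clones the share was larger than over all features. WT clone 7 against WT clone 1 called 1 of 59 (1.69%, against 0.722% of all features), SLIT3 with a log2 difference of -1.55 (SE 0.24, edgeR adjusted p = 0.032). KO clone 5 against KO clone 1 called 6 (10.2%, against 0.653%). SLIT2 (log2 0.84), SLIT3 (1.44) and ROBO1 (0.47) were higher in KO clone 5, and EFNB2 (-1.20), SEMA6D (-1.39) and EPHA4 (-0.49) were lower. These counts shift with single libraries: without WT clone 1 replicate 1 they were 5 and 10, and with either library of KO clone 1, or replicate 2 of KO clone 5, left out singly they were 0 and 1. Without KO clone 5 replicate 1 or WT clone 7 replicate 2 they were 0 and 2, without WT clone 1 replicate 3 or WT clone 7 replicate 1 they were 0 and 4, and without WT clone 1 replicate 2 they were 2 and 4. The difference between the clone comparisons was called for 14 genes without WT clone 1 replicate 1, for 0 without KO clone 1 replicate 2, for 3 without KO clone 5 replicate 1 and for 2 without KO clone 1 replicate 1, KO clone 5 replicate 2 or either WT clone 7 library.

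Beyond the ligands and receptors, lists of their signalling partners were counted in the same fit, in which 10.8% of all features were higher and 11.3% lower. The ephrin partners had 1 of 24 higher and 7 lower, with a median log2 difference of -0.01, the same as over all features. FYN, a Src-family kinase that acts below ephrins, was the higher gene (22 to 52.5 CPM, log2 1.25, SE 0.09, edgeR adjusted p = 1.4e-06), and the adaptor GRIP1 was lower (log2 -1.10). Semaphorin and plexin partners had 4 of 33 higher and 7 lower, among them the oxidoreductase MICAL1, which disassembles actin, at log2 1.35, and the tyrosine kinase FES at log2 -3.22.

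For the SLIT and ROBO pathway 8 of 26 partners were lower and none higher, beside the 11.3% and 10.8% of all features. The alternative ROBO3 ligand NELL2 fell from 17.7 to 1.74 CPM (log2 -3.36, SE 0.15, edgeR adjusted p = 5.3e-08), FLRT2, a membrane protein that binds UNC5 receptors, from 34.5 to 8.22 CPM (log2 -2.07, SE 0.11, edgeR adjusted p = 1.7e-07), and the heparan sulphate proteoglycan SDC2 by 1.44 on the log2 scale. Netrin partners had 5 of 22 higher, with TRIM9, a ubiquitin ligase that binds DCC, at log2 0.63, and 7 lower, with the death-associated kinase DAPK1 at log2 -0.75.

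Gene length differed with direction. The 12 lower guidance genes had a median span of 299 kb, the 8 higher ones 27.3 kb and the 39 not called 32.7 kb. Over all genes the medians were 61.4 kb for lower, 24.1 kb for higher and 20 kb for genes not called. The longest of the lower genes was ROBO2 at 1743 kb and the shortest EFNB2 at 45.9 kb.

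In the authors' deposited table, 24 of the 61 genes had an adjusted p below 0.05 (39.3%, against 20.4% of its rows), 9 higher (14.8%, against 9.42%) and 15 lower (24.6%, against 10.9%). Of the 20 genes called here 19 were also called in the authors' deposited table, in the same direction.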

How the data were processed

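RNA was sequenced from 9 libraries of HAP1 cells, 5 WT and 4 KO, as directional rRNA-depleted libraries with UMI adaptors, per the labels' protocols. Reads were processed with STAR 2.5.2a on hg38 and tested with DESeq2 1.22.2, per the submitters' processing notes; the sources used here give no strand setting, annotation release or use of UMIs. The deposited counts are raw counts per gene or repeat subfamily. The smallest row total was 37, so low rows had been removed. The authors' log2 differences and adjusted p-values were deposited in a separate table and used only as quoted.

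Genes and repeats were tested together with edgeR 4.0.16 in R 4.3.3 (filterByExpr by genotype, minimum count 10, TMM scaling, quasi-likelihood F test), leaving 18829 features, of which 17777 were genes. Benjamini-Hochberg adjustment covered all of them, with a threshold of 0.05. A fit with 4 clone groups gave the clone comparisons. Levels are in CPM, TMM-scaled counts per 1e6. The ± sign marks SD. SE belongs to the edgeR log2 difference, and 95% intervals extend 1.96 SE on each side. Exon lengths and spans came from GENCODE 44. The test was tried on simulated data. The SE was derived from the log2 difference and the F statistic, so the intervals reflect variation among libraries as well as counting error. The floor of 3 counts covers counting error only.

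Named were all genes called in any comparison, other family members by level, and in each partner list genes among the 4 called with the smallest p; a further partner list is not reported here. The genes and lists were chosen with earlier results of these data known. Deviations from the clone mean correlated at 0.101 to 0.507 in all 12 pairs of libraries that share a number across clones; those of a clone with 2 libraries mirror each other, so the 12 values are not independent. With every pair above 0.1, a block on replicate number was tried as an alternative, while the main fit had none. Most pairs of clones with different numbers lay below 0. WT clone 1 replicate 3 and WT clone 7 replicate 1 nevertheless reached 0.147, so a pairing by number is not settled. With this replicate block 23 of the 59 genes were called between KO and WT, and 25, 24, 9, 3 and 8 in KO clone 1 against WT clone 1, KO clone 5 against WT clone 7, their difference, WT clone 7 against WT clone 1 and KO clone 5 against KO clone 1. Other alternatives were DESeq2 1.42.0, its size factors, other filters, robust dispersion, leaving out libraries or clones, and clones summed. Python 3.11.15, pandas 2.3.3, numpy 2.4.6 and matplotlib 3.10.9 were used.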

Additional observations from a re-analysis of the deposited data

Results flagged for a closer look

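In 3 of 117 groups of 4 or 5 libraries, 1 library lay far from the others, where chance alone flags about 1 in 20 groups. EPHB6 was at 2.84 CPM in WT clone 1 replicate 1, above the other WT libraries. PLXNC1 was at 24.3 CPM in the same library, below the other WT libraries. SEMA3F was at 9.34 CPM in KO clone 5 replicate 1, below the other KO libraries.

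For 6 genes the KO minus WT log2 difference of clones 5 and 7 differed from that of clones 1 and 1, by edgeR's test of the difference. It was larger by 2.99 for SLIT3 (adjusted p = 0.0043), 0.94 for SLIT2 (adjusted p = 0.0043) and 0.57 for ROBO1 (adjusted p = 0.029). It was -2.15 for EPHA7 (adjusted p = 0.041), -1.50 for EFNB2 (adjusted p = 0.017) and -0.67 for EPHA4 (adjusted p = 0.029). Clone and batch of purchase cannot be told apart.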

How the results depend on the processing

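Of the 20 genes called between KO and WT, 11 passed under every alternative run and 9 lost the call in at least 1, with no change of sign. The lost calls were those of EPHA10, EPHB3, SEMA3B, SEMA3F, SEMA4C, SEMA4D, SEMA6A, ROBO2 and PLXNA1. Summing the libraries within a clone left 13 calls, 3 of them higher, while 4 clone groups gave 29 (18 lower and 11 higher), and DESeq2, genes only and leaving out WT clone 1 gave 26 each. Higher calls numbered 5 without KO clone 1 and 4 without KO clone 5. Leaving out 1 library gave 17 to 21 calls, 5 to 9 higher and 12 to 15 lower. The same gave 13 to 25 in KO clone 1 against WT clone 1, 14 to 30 in KO clone 5 against WT clone 7, 0 to 14 for their difference, 0 to 5 in WT clone 7 against WT clone 1, and 1 to 10 in KO clone 5 against KO clone 1. WT clone 7 against WT clone 1 called 3 genes with DESeq2, 2 with robust dispersion and 3 with the replicate block.

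Of the 39 genes not called, 16 passed in some alternative and 17 changed sign in some. Without KO clone 5 the log2 differences that changed sign were 0.029 for EPHA4, -0.45 for SLIT1, 0.12 for SEMA4A, -0.020 for SEMA4F and 0.092 for EFNA4. Without WT clone 1 they were -0.014 for EPHB4, 0.25 for ROBO3, -0.040 for SEMA4F, 0.056 for SEMA5B, 0.16 for SEMA6C, 0.0023 for SEMA7A, 0.0086 for EFNA4 and -0.017 for EFNB3. Without KO clone 1 they were 0.082 for ROBO1, 0.22 for SLIT2, 0.089 for EFNA1, 0.017 for EFNA5, -0.19 for UNC5B and -0.0067 for NTNG2. With the replicate block they were 0.14 for ROBO3 and 0.066 for SEMA6C. With 4 clone groups they were 0.0048 for ROBO3 and 0.010 for SEMA6C. Without WT clone 7 they were -0.14 for SLIT1 and -0.30 for UNC5B. With 1 library left out the log2 differences ranged over -0.20 to 0.12 for ROBO3, -0.13 to 0.19 for SLIT1, -0.29 to 0.0008 for SLIT2, -0.48 to 0.023 for SEMA4A, -0.067 to 0.067 for SEMA4F, -0.10 to 0.061 for SEMA6C, -0.075 to 0.052 for EFNA4, -0.046 to 0.10 for EFNB3, -0.10 to 0.34 for UNC5B. The cause was not tested. Genes of about 1 CPM rest on few reads at these depths.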
